A study of Mus musculus with 2 samples.

Results

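Neutrophils of a malignant pleural effusion were described from single-cell RNA counts of mouse pleural fluid. Members were chosen by measured values: a cell barcode was taken as a neutrophil when 3 RNAs abundant in these cells, S100a8, S100a9 and Retnlg, made up at least 2% of its gene UMIs (molecules counted by their barcodes) and the macrophage complement genes C1qa, C1qb and C1qc gave it at most 2 UMIs together. Barcodes with under 300 detected genes or over 10% mitochondrial UMIs were not kept. This gave 1541 neutrophils among 3963 kept barcodes: 84 of 1116 in library 1 (7.53%, exact 95% interval 6.05% to 9.23%) and 1457 of 2847 in library 2 (51.2%, interval 49.3% to 53%). Both libraries carry the same labels: mice given 150000 LLC cells (a Lewis lung carcinoma line) in 100 µl of saline into the pleural space, fluid taken at 10 days, red cells lysed, and live cells positive for CD45 (a marker of leukocytes) and CD11b (a marker of most myeloid cells) sorted for a droplet kit that reads the 3' ends of RNAs. The labels name no strain, genotype, sex, age or pooling of animals. The p-values rest on only 2 libraries, and the spread between them may be technical. Tumour-free animals and blood neutrophils were not analysed here.

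Neutrophils are short-lived granulocytes that leave the blood along gradients of chemokines, lipids and bacterial peptides, take up and kill microbes with granule proteins and an NADPH oxidase, and are removed by macrophages once they die. Their granule proteins are made in the bone marrow in a fixed order, primary granules first, so that mature cells in tissue carry little primary granule RNA. In tumours and effusions they are known both for inflammatory mediators such as interleukin 1 and for molecules that restrain T cells.

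Neutrophils held little RNA. They had a median of 2201 UMIs in library 1 (1999 to 11012) and 1332 in library 2 (507 to 17611), against 10345 and 10797.5 in the other kept barcodes, and a median of 781 and 610 detected genes against 2645 and 2856. Mitochondrial RNA took a median of 0.446% and 0.312% of their UMIs, against 1.57% and 1.53%. Summed over cells, they gave 234897 and 2318750 UMIs, and the other barcodes 11222492 and 17928028, so levels in library 1 neutrophils are the least precise. Barcodes started at 1999 UMIs in library 1 but at 500 in library 2. With library 2 limited to at least 1999 UMIs, the share of neutrophils there was 17.3% in place of 51.2% (246 of 1426, interval 15.3% to 19.3%); the part of other differences between the libraries was not tested. The libraries shared 4 barcodes, of which 0 were neutrophils in both.

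**Figure D1:**
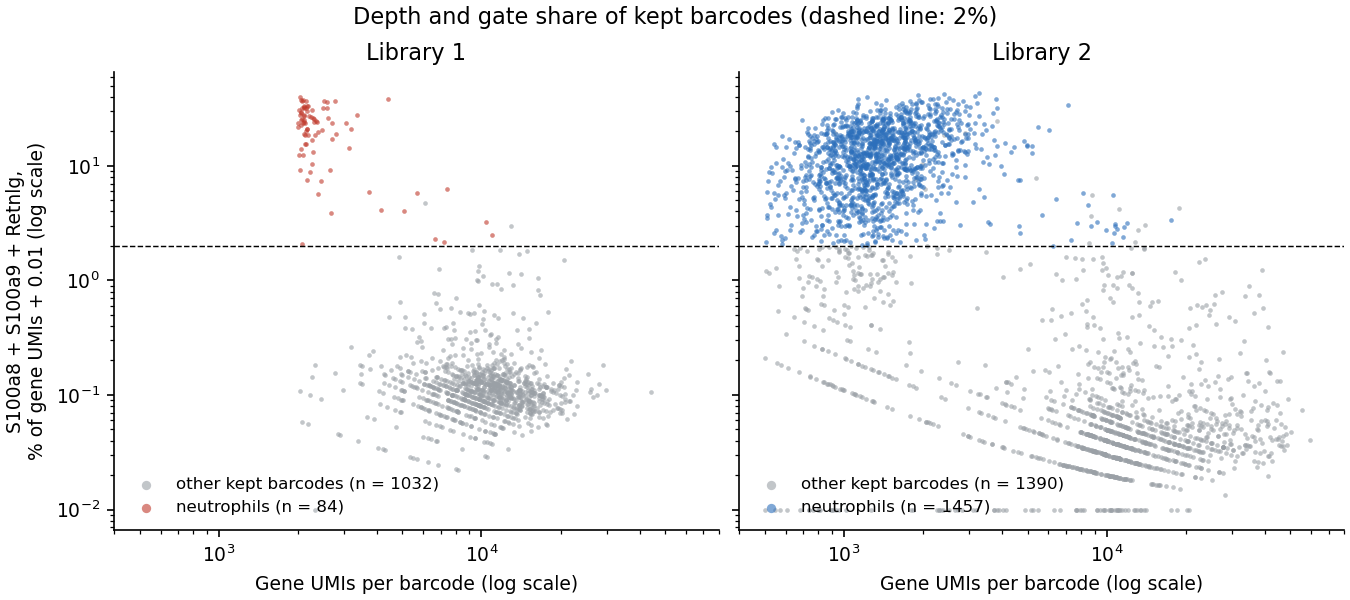
Each point is a kept barcode; the x axis gives its gene UMIs (log scale) and the y axis the percent of them from S100a8, S100a9 and Retnlg, with 0.01 added (log scale). Neutrophils (coloured: 84 and 1457) lie at or over the dashed 2% line and at the shallow end of both libraries, while the other kept barcodes (grey: 1032 and 1390) lie mostly below it; grey points over the line have over 2 C1q UMIs.

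The genes that chose the cells are given as a description. S100a8 and S100a9, the chains of the calcium-binding protein calprotectin, stood at 103858 and 74748 UMIs per 1000000 gene UMIs of the summed cells (CPM) for S100a8 and at 58711 and 56294 for S100a9 in libraries 1 and 2. Retnlg, a resistin-like secreted protein, stood at 22120 and 6428 CPM. Together they made up a median of 23.6% of a neutrophil's UMIs in library 1 and 12.2% in library 2. The C1q genes gave no UMI in 61 of 84 and 1199 of 1457 neutrophils. Another 2 and 16 barcodes reached 2% but had over 2 C1q UMIs and were left outside.

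In library 2, barcodes on both sides of the 2% limit carried neutrophil genes. Just inside, at 2% to 2.5%, lay 39 barcodes with a median of 1227 UMIs, Cxcr2 at 1262, Hdc at 1104, Asprv1 at 355 and Csf3r at 775 CPM. Just outside, at 1.5% to 2% with the same C1q limit, lay 47 with a median of 1186 UMIs, Cxcr2 at 988, Hdc at 1179, Asprv1 at 181 and Csf3r at 535 CPM. A UMI of Cxcr2, Hdc, Asprv1 or Csf3r was found in 37 of the 39 and 42 of the 47. In library 1 the 4 barcodes just inside and the 4 just outside were deep (medians of 6916 and 10482 UMIs) and rich in Cd74, the invariant chain of MHC class II, at 16940 and 18729 CPM.

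Markers that the gate did not use were those of neutrophils. The 3 others fixed for this cell type were higher in neutrophils than in all other kept barcodes. Cxcr2, the receptor for CXCL1 and CXCL2, stood at 1222 and 1864 CPM against 13.5 and 39.4 (log2 fold change 6.47 ± 0.35 SE, edgeR adjusted p = 1.34e-71, n = 2 libraries). Hdc, which makes histamine, stood at 1090 and 1801 CPM against 12.8 and 55.5 (6.14 ± 0.35). Asprv1, a retroviral-like protease of neutrophils, stood at 383 and 493 CPM against 3.21 and 8.09 (6.82 ± 0.36). Library 2 carries antibody tags, and 1426 of its 1457 neutrophils but 275 of its 1390 other barcodes had more of tag BC3 than of BC2. With library 2 limited to the BC3 side, the median log2 fold change of these 3 genes was 4.98 in place of 6.47. The other barcodes there were shallow, with a median of 1474 UMIs against 11808 on the BC2 side. They also held 42 of the 47 barcodes just outside the gate, most of which carried neutrophil genes. The part of depth and of these barcodes in the smaller difference was not tested. At least 1 UMI of Cxcr2, Hdc, Asprv1, Csf3r or Il1r2 was present in 84 of 84 and 1451 of 1457 neutrophils. It was also present in 666 of 1032 and 1016 of 1390 other barcodes, which are deeper, so this count alone separates the groups poorly. After each cell was thinned to 500 UMIs, Cxcr2 was found in 48.8% and 59.8% of neutrophils and in 0.775% and 7.77% of the other barcodes; without thinning the shares were 89.3% and 86.8% against 8.91% and 18.6%, at the median depths given above. The gate and the tests share barcodes, so a gene that goes with the gate genes across cells was bound to differ. The fit leaves 1 residual degree of freedom and draws on other genes for each gene's spread. A p-value therefore does not show how alike the libraries were for that gene. Cd274, described below, passed (edgeR adjusted p = 5.11e-07) with opposite signs in the 2 libraries.

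Markers of other cell types were present, and unevenly over the cells. Over all genes tested, 19.9% were higher and 22.1% lower in neutrophils, the background for the counts that follow. Of 9 macrophage markers tested, 9 were lower in neutrophils, and the 12 macrophage markers together stood at 1047 and 789 CPM against 8930 and 8086. Of resident pleural macrophage markers 4 of 6 were lower and 1 higher (166 and 121 CPM together against 643 and 535), of monocyte markers 5 of 6 lower (660 and 684 CPM together against 3368 and 5352) and of dendritic cell markers 5 of 7 lower (21.3 and 6.9 against 123 and 76.6). T cell markers, lower in 3 of 4, stood together at 25.5 and 12.1 CPM against 3.3 and 137, so they were above the rest in library 1 and below it in library 2. Of NK cell markers 0 had enough UMIs to be tested (0 and 2.16 CPM). Red cell markers were higher in 3 of 4 (123 and 17.3 CPM against 75.8 and 4.3), and those of mast cells and tumour cells did not pass. With DESeq2 fewer of these calls were made: 2 of 7 dendritic cell markers and 0 of 4 T cell markers were lower (median log2 fold change of the T cell markers 0.09 in place of -2.13), and 1 of 4 red cell and 1 of 4 B cell markers were higher. Both eosinophil markers tested, Siglecf and Ccr3, were higher, on few UMIs, and the list summed to 21.3 and 35.8 CPM against 1.16 and 1.28. Ccr3 had 2 and 11 UMIs. The eosinophil granule genes Epx, Prg2 and Ear1 had 0 UMIs in neutrophils, while Siglecf, a lectin of eosinophils also reported on tumour neutrophils, stood at 12.8 and 30.2 CPM (3 and 70 UMIs in 3 of 84 and 64 of 1457 cells) against 0.713 and 0.948. The platelet genes Gp1ba, Gp9 and Tubb1 had 0 UMIs, and Pf4, a platelet chemokine that was also high in the other barcodes, stood at 660 and 122 CPM against 9011 and 2534. All 4 B cell markers tested were higher by the fit, with a sum of 76.6 and 88.8 CPM against 93.9 and 33.2, but Ms4a1 came from 1 and 9 cells and Cd79a from 1 and 8. Without members that carried other cells' markers, Ms4a1 turned to -1.17 on the log2 scale and Cd79a was lower as well; both are among the markers by which those members were found. At least 3 UMIs of macrophage, monocyte, dendritic, T, NK or B cell markers were found in 24 of 84 and 198 of 1457 neutrophils (median 2957.5 and 1803 UMIs), and 19 and 559 had none; results were therefore also computed without those 24 and 198, a choice made after the data were seen.

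Against all other kept barcodes, 4273 of 10173 genes (42% of those tested) passed edgeR's quasi-likelihood test at a 5% false discovery rate, 2026 higher in neutrophils (19.9%) and 2247 lower (22.1%). This is the background for the marker counts above and for every count below, since with cells this unlike a call is common. The scaling sets the split: TMM placed the fitted log2 fold changes a median of 0.42 above the plain ratios of CPM, and with library size alone 1655 genes were higher and 3283 lower, a shift of -0.33 in the median gene, from -0.23 to -0.55 on the log2 scale. Of the 87 ribosomal protein genes tested, 60 were lower and 2 higher in neutrophils; these genes took 8.53% and 5.77% of neutrophil UMIs against 17.5% and 15.7%.

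Leading genes, among those with at least 100 CPM on the higher side and 1 direction in both libraries, were the stefins, cysteine protease inhibitors that form a cluster of near-identical copies in mice. Stfa2l1 stood at 2244 and 2182 CPM against 8.38 and 25.7 (7.66 ± 0.37), Stfa1 at 490 and 491 against 1.78 and 6.19, and Stfa2, Gm5483, BC100530 and Gm20406 were also among the 12 leading genes, but reads may have been split between these copies and the single values are uncertain. Ly6g, the surface antigen by which mouse neutrophils are stained, stood at 128 and 121 CPM against 0.802 and 0.948 (7.59 ± 0.42, edgeR adjusted p = 3.57e-68). The remaining leading genes were Mrgpra2b, a receptor of a family that senses peptides, at 140 and 148 CPM against 0.267 and 1.9, and G0s2, an inhibitor of triglyceride lipolysis, at 519 and 893 against 4.1 and 18.6. In all of these the 2 neutrophil values lay far above both values of the other barcodes. The 10 genes with the largest falls by the same limits were Ccl12 and Ccl7, chemokines for monocytes, Arg1, Pf4, the mannose receptor Mrc1, the endocytic adaptor Dab2, and Dok2, Slc25a4, Sdc4 and Sdf2l1. Ccl7 stood at 12.8 and 27.6 CPM in neutrophils against 526 and 545 (-3.98 ± 0.36), and Mrc1 at 8.51 and 12.5 against 183 and 218.

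Receptors that steer neutrophils to chemokines, peptides and lipids were higher in 8 of 16 members and lower in 5. Besides Cxcr2 these were Cxcr1 (38.3 and 30.6 CPM against 0.446 and 0.614; 6.38 ± 0.58), a second receptor of the same family, and the formyl peptide receptors Fpr1 (362 and 244 against 41.2 and 32.5) and Fpr2 (456 and 724 against 53.9 and 107). Cxcr4, which holds neutrophils in the bone marrow and returns on aged cells, was higher as well, at 80.9 and 60.4 CPM against 7.4 and 4.8 (4.06 ± 0.37). Ccr1, for CCL3 and related chemokines, stood at 1086 and 1850 CPM against 526 and 544 (1.87 ± 0.29), and C5ar1, for the complement fragment C5a, and Ptafr, for platelet-activating factor, were higher by 1.07 ± 0.28 and 1.26 ± 0.31. Among the members that were lower were receptors of mononuclear cells: Ccr2 (187 and 127 CPM against 953 and 1022), Cmklr1, C3ar1 and Ccr7, the last turning to 0.53 on the log2 scale when the gate was set at 1%. Ltb4r1, the leukotriene B4 receptor, did not pass (298 and 549 CPM against 425 and 399).

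Cytokine receptors were higher in 12 of 20 members and lower in 1. Csf3r, the receptor for G-CSF, the growth factor of neutrophils, stood at 690 and 1079 CPM against 19 and 40.8 (5.41 ± 0.33, edgeR adjusted p = 3.76e-56). Receptors of the interleukin 1 system followed: Il1r2, a decoy that binds interleukin 1 without signalling, at 2835 and 2616 CPM against 271 and 241 (3.87 ± 0.31), and Il1rap, the shared second chain, at 140 and 257 against 9.27 and 10.8 (4.78 ± 0.34). The signalling receptor Il1r1 had 1 and 0 UMIs in neutrophils. Il17ra, for interleukin 17, was higher (209 and 305 CPM against 58.8 and 67.8), and Csf1r, the receptor for the macrophage growth factor, was the lower member, at 42.6 and 72 against 158 and 274. The interferon receptor chains Ifnar1, Ifnar2, Ifngr1 and Ifngr2 did not pass; Ifngr1 stood at 324 and 301 CPM against 371 and 282.

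**Figure D2:**
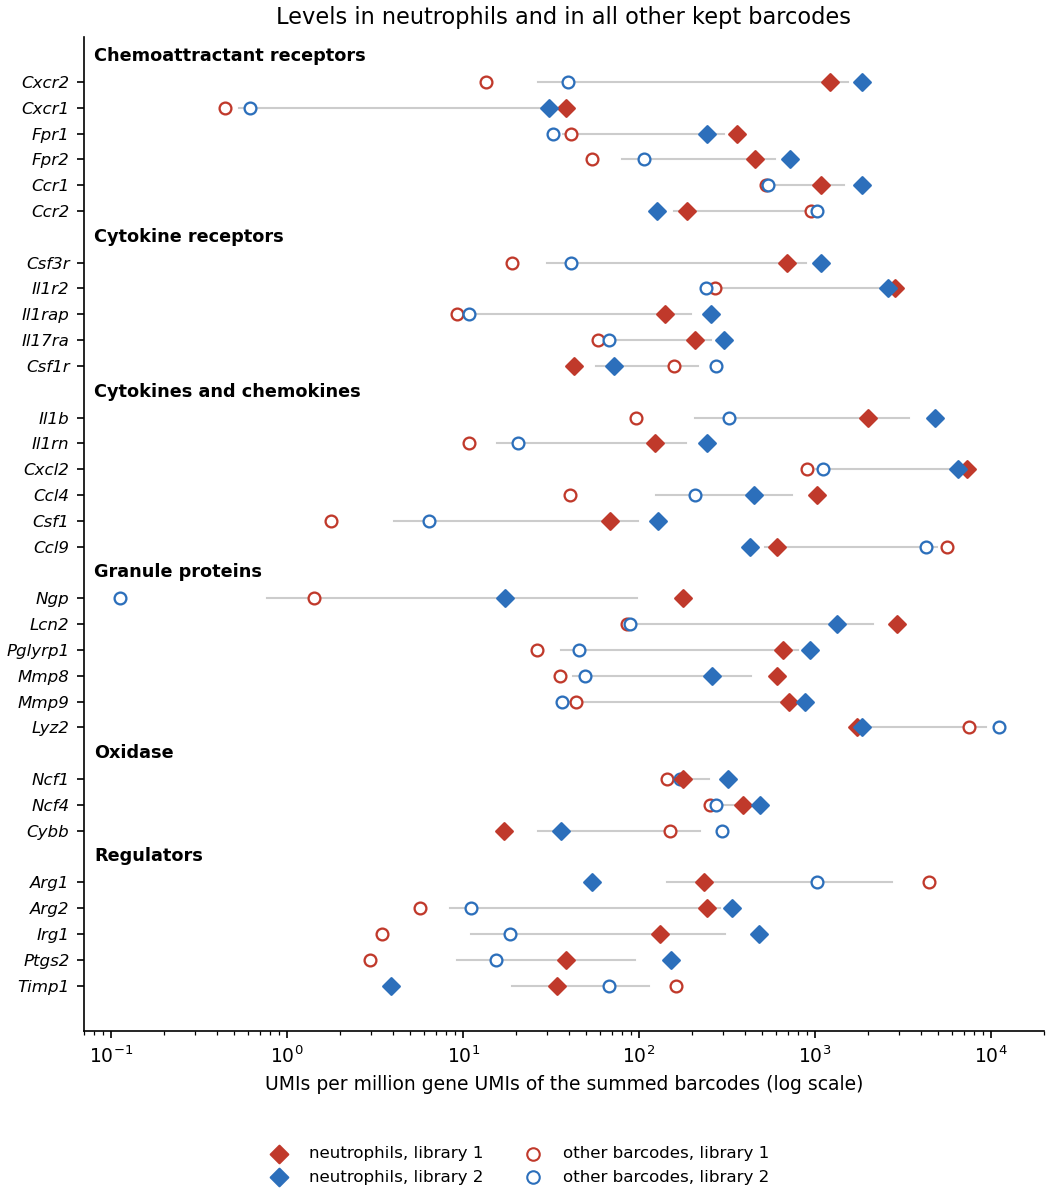
Levels of 31 genes, in CPM of the summed barcodes (log scale): filled diamonds are neutrophils and open circles all other kept barcodes, red for library 1 and blue for library 2, with a grey line joining the means. Cxcr2, Csf3r, Il1b and Mmp9 lie far to the right in neutrophils of both libraries, and Ccr2, Ccl9, Lyz2 and Arg1 far to the left.

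Of the mediators neutrophils make, 12 of 22 cytokines and chemokines tested were higher and 4 lower. Il1b, the main secreted form of interleukin 1, stood at 2014 and 4797 CPM against 95.5 and 323 (4.60 ± 0.33), and was found in 68 of 84 and 1322 of 1457 cells. Il1rn, the natural antagonist of the interleukin 1 receptor, was higher too (123 and 245 CPM against 10.8 and 20.5; 4.04 ± 0.33), as was Il1f9, an interleukin 36 (85.1 and 210 against 1.34 and 3.46; 6.46 ± 0.40). Cxcl2, a ligand of Cxcr2, stood at 7322 and 6491 CPM against 904 and 1119 (3.23 ± 0.31); 1 cell held 35.5% of its UMIs in library 1, and without that cell the level was 4797. The chemokines Ccl3 and Ccl4 leaned on that library's single cells even more, since 1 cell held 87.9% and 88.4% of their UMIs; without it Ccl4 fell from 1026 to 121 CPM in library 1, against 450 in library 2. The fitted Ccl4 difference was 3.29 ± 0.32 with all members and 1.94 without those that carried other cells' markers, and from a single library it was 4.95 (library 1) and 1.32 (library 2). Csf1, the growth factor of macrophages, stood at 68.1 and 129 CPM against 1.78 and 6.36 (5.15 ± 0.39), and Osm, Il15, Tnfsf14, Tnfsf9 and Cxcl3 were also higher. Ccl2, Ccl6, Ccl9 and Cxcl16, chemokines of macrophages, were lower (Ccl9 609 and 430 CPM against 5628 and 4277). Tnf gave 4.26 and 12.9 CPM against 9.36 and 10.5 and did not pass, and Il6 had 0 UMIs in neutrophils.

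Granule RNA differed by granule type. Of the primary granule genes, Elane and Ctsg had 0 UMIs in neutrophils and Mpo 0 and 2, and the list summed to 183 and 290 CPM against 1356 and 2153. Prtn3, proteinase 3, was lower in neutrophils than in the rest, at 25.5 and 62.5 CPM against 118 and 191 (-1.23 ± 0.33), as was Ctsc, which activates these proteases. Secondary granule genes were higher in 5 of 7 tested: besides Ly6g these were Ngp (179 and 17.3 CPM against 1.43 and 0.112; 7.35 ± 0.49), Lcn2, which binds bacterial siderophores (2925 and 1339 against 85.5 and 89.1; 4.96 ± 0.33), Pglyrp1, which binds peptidoglycan (656 and 942 against 26.4 and 45.8) and haptoglobin Hp. The median log2 fold change of the 7 was 4.96, and 3.67 with library 2 limited to the BC3 side. Ly6g was counted in this list, though it codes for a surface antigen and not for a granule protein. Ltf and Camp, which mark earlier cells of the marrow, had 0 and 5 and 0 and 1 UMIs. Tertiary granule and secretory vesicle genes split into 5 higher and 3 lower of 8: the gelatinase Mmp9 (711 and 875 CPM against 43.7 and 36.7; 4.77 ± 0.32) and the collagenase Mmp8 (609 and 260 against 35.4 and 49.1; 3.69 ± 0.31) with Slpi, Cd14 and Vamp8 (the last not with library size alone), against Lyz2, Lyz1 and Arg1. Mmp8 was counted in this list, though its protein is also known from secondary granules. Arg1 was counted here too, though it is described below with immune regulation. Its level was far higher in the other barcodes (4448 and 1024 CPM against 234 and 54.3). With library 2 limited to the BC3 side 3 members were higher and 3 lower. Lysozyme Lyz2, also a macrophage gene, stood at 1737 and 1841 CPM against 7552 and 11175 (-1.90 ± 0.30), and 1 cell held 28.9% of its UMIs in library 1 and 8.69% in library 2.

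The NADPH oxidase, which makes superoxide, was uneven in its parts. Of its 7 members 4 were higher, among them the cytosolic subunits Ncf1 and Ncf4 and the GTPase Rac2 (Rac2 966 and 1095 CPM against 388 and 407; 1.83 ± 0.29). The membrane catalytic subunit Cybb was lower, at 17 and 36.2 CPM against 151 and 295 (-2.49 ± 0.35), and its partner Cyba did not pass (1392 and 1428 against 2510 and 2528). Of 12 antioxidant genes, 3 were higher and 5 lower: Msrb1, which repairs oxidised methionine, rose (2852 and 3362 CPM against 660 and 727; 2.62 ± 0.30), with Prdx5 and Gpx4 (the latter not with library size alone), whereas Prdx1 (213 and 110 against 1086 and 871) and the haem-degrading enzyme Hmox1 (251 and 143 against 1358 and 543) fell. With DESeq2 2 were lower.

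Sensors of microbes and antibody complexes were higher in 14 of 19 members and lower in 2. Trem1, an amplifying receptor of granulocytes, stood at 443 and 496 CPM against 49.3 and 39.4 (3.89 ± 0.31), Clec4d at 924 and 1035 against 273 and 197 and Clec4e at 528 and 836 against 157 and 180, both lectin receptors for fungal and mycobacterial lipids. The toll-like receptors Tlr2, Tlr4 and Tlr13 were higher by 1.19 to 1.82 on the log2 scale. The Fc receptors split: the activating Fcgr4 stood at 315 and 1014 CPM against 225 and 691 (0.99 ± 0.29), the inhibitory Fcgr2b at 34.1 and 70.3 against 356 and 445 (-2.36 ± 0.32) and the high-affinity Fcgr1 at 59.6 and 90.1 against 523 and 857. In adhesion and migration 8 of 18 were higher and 1 lower. Selplg, a ligand by which leukocytes roll on vessel walls, stood at 1111 and 990 CPM against 179 and 183 (2.99 ± 0.30); Itgb1, an integrin chain, was lower (34.1 and 65.6 against 138 and 208).

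Genes of cell death and survival were higher in 11 of 23 and lower in 6, with a median log2 fold change of 0.31 that was -0.01 with library size alone. Members that hold death off were among the higher: Mcl1, on which neutrophil survival depends, at 660 and 954 CPM against 318 and 426 (1.57 ± 0.28), Bcl2l1 (162 and 104 against 27.3 and 25.2), the caspase 8 inhibitor Cflar and the kinase Pim1 (1009 and 2271 against 227 and 571). Others serve death: the receptor Fas (46.8 and 174 CPM against 11.9 and 21.1; 3.21 ± 0.36) and Casp4 were higher, and Bax, Bak1, Ripk3 and Mlkl lower. The Bcl2a1 copies, which are near-identical, were lower or did not pass and are uncertain. Of 15 genes of clearance signals 5 were higher and 4 lower, or 4 and 2 of 14 with library 2 limited to the BC3 side. Cd47 and Cd24a, ligands that tell macrophages not to engulf, stood at 651 and 612 CPM against 290 and 423 (1.30 ± 0.28) and at 387 and 444 against 131 and 55.1 (2.80 ± 0.31); Cd300lf, a phosphatidylserine receptor, was higher by 3.22 ± 0.30. Calr, which marks cells for uptake when exposed, was lower (196 and 166 CPM against 648 and 1026), and Xkr8, the scramblase that exposes phosphatidylserine, gave 0 and 5 UMIs and did not pass.

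Genes by which myeloid cells restrain or shape immunity were higher in 13 of 18 members and lower in 2. Arginine metabolism was divided between its enzymes: Arg2 stood at 243 and 337 CPM against 5.7 and 11.2 (5.61 ± 0.34), whereas Arg1 stood at 234 and 54.3 against 4448 and 1024 (-3.77 ± 0.32). Irg1 (Acod1), which makes itaconate, was higher (132 and 482 CPM against 3.48 and 18.6; 5.40 ± 0.35), as were Ptgs2, cyclooxygenase 2 (38.3 and 151 against 2.94 and 15.5), Nos2, which makes nitric oxide (59.6 and 11.2 against 2.23 and 1.95), and Entpd1, which breaks down extracellular ATP. Cd274, the checkpoint ligand PD-L1, was higher by the fit (2.05 ± 0.37), but this rested on library 2: it had 1 UMI in library 1 (4.26 CPM against 9.27; -0.26 on the log2 scale from that library alone) and 464 in library 2 (200 CPM against 54.5; 2.08). Tgfb1 was lower (72.4 and 61.2 CPM against 258 and 249). Timp1, the metalloproteinase inhibitor named in the series title, was low in neutrophils, at 34.1 and 3.88 CPM (8 and 9 UMIs) against 162 and 67.3 (-2.83 ± 0.41, edgeR adjusted p = 1.26e-10); from library 1 alone, where 1 cell held 4 of the 8 UMIs, the difference was -1.88 and from library 2 alone -3.83. Its receptor Cd63 was higher (341 and 356 CPM against 259 and 59.2), as were Timp2 (128 and 53 against 52.3 and 33.1) and the enzymes Mmp8 and Mmp9; over the 11 genes of this list tested, 4 were higher and 4 lower.

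In glycolysis and the hypoxia response, 8 of 23 members were higher and 1 lower. The higher members were transporters and regulators: the glucose transporters Slc2a3 (93.7 and 82.8 CPM against 2.05 and 4.63; 5.14 ± 0.38) and Slc2a1, the switch enzyme Pfkfb3, the lactate exporter Slc16a3 and the hypoxia-induced Egln3 and Hilpda. The enzymes of the pathway itself, such as Gapdh, Pkm, Ldha and Eno1, did not pass, and Tpi1 was lower (456 and 298 CPM against 789 and 812; -0.67 ± 0.28). Transcription factors were higher in 15 of 27 and lower in 6: Mxd1, a Myc antagonist of differentiated cells (481 and 1443 CPM against 27.9 and 71.5; 4.70 ± 0.32), Egr1, Junb, Klf2 and the granulocyte factors Cebpe (21.3 and 28 against 12.7 and 9.48) and Cebpb were higher, and the macrophage factor Maf (25.5 and 24.6 CPM against 219 and 245) was lower, as were Irf8, Klf4, Cebpa and Zeb2. Cell cycle genes were lower in 11 of 14 and higher in 1. They were lower in 2 with DESeq2, in 6 with library 2 limited to the lowest depth of library 1 and in 6 of 7 with its BC3 side. Mki67, Mcm3, Tyms, Tk1 and Cdc20 had 0 UMIs in neutrophils, so that, taking 3 counts over the group as the floor, Mcm3 was at least 13.1-fold and Mki67 at least 8.41-fold lower; Hmgb2, a chromatin protein, was higher (920 and 1175 CPM against 209 and 274).

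MHC class II genes were lower in 7 of 7 members, and their RNA in library 1 neutrophils sat mostly in few cells. Cd74 stood at 4530 and 839 CPM against 10190 and 7770 (-1.74 ± 0.31), and H2-Aa at 1184 and 260 against 3759 and 2487 (-2.01 ± 0.30). In library 1, 1 of the 84 cells held 48.9% of the Cd74 and 64.7% of the H2-Aa UMIs, and in library 2 the top cell held 15.8% and 20.8%, with at least 1 UMI in 502 and 224 of the 1457 cells. Without members that carried other cells' markers, Cd74 was at 171 and 281 CPM and H2-Aa at 67 and 109. MHC class I genes differed little: 2 of 7, H2-D1 (2486 and 5654 CPM against 2520 and 3563; 0.79 ± 0.29) and Tapbp, were higher, H2-D1 not with library size alone.

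**Figure D3:**
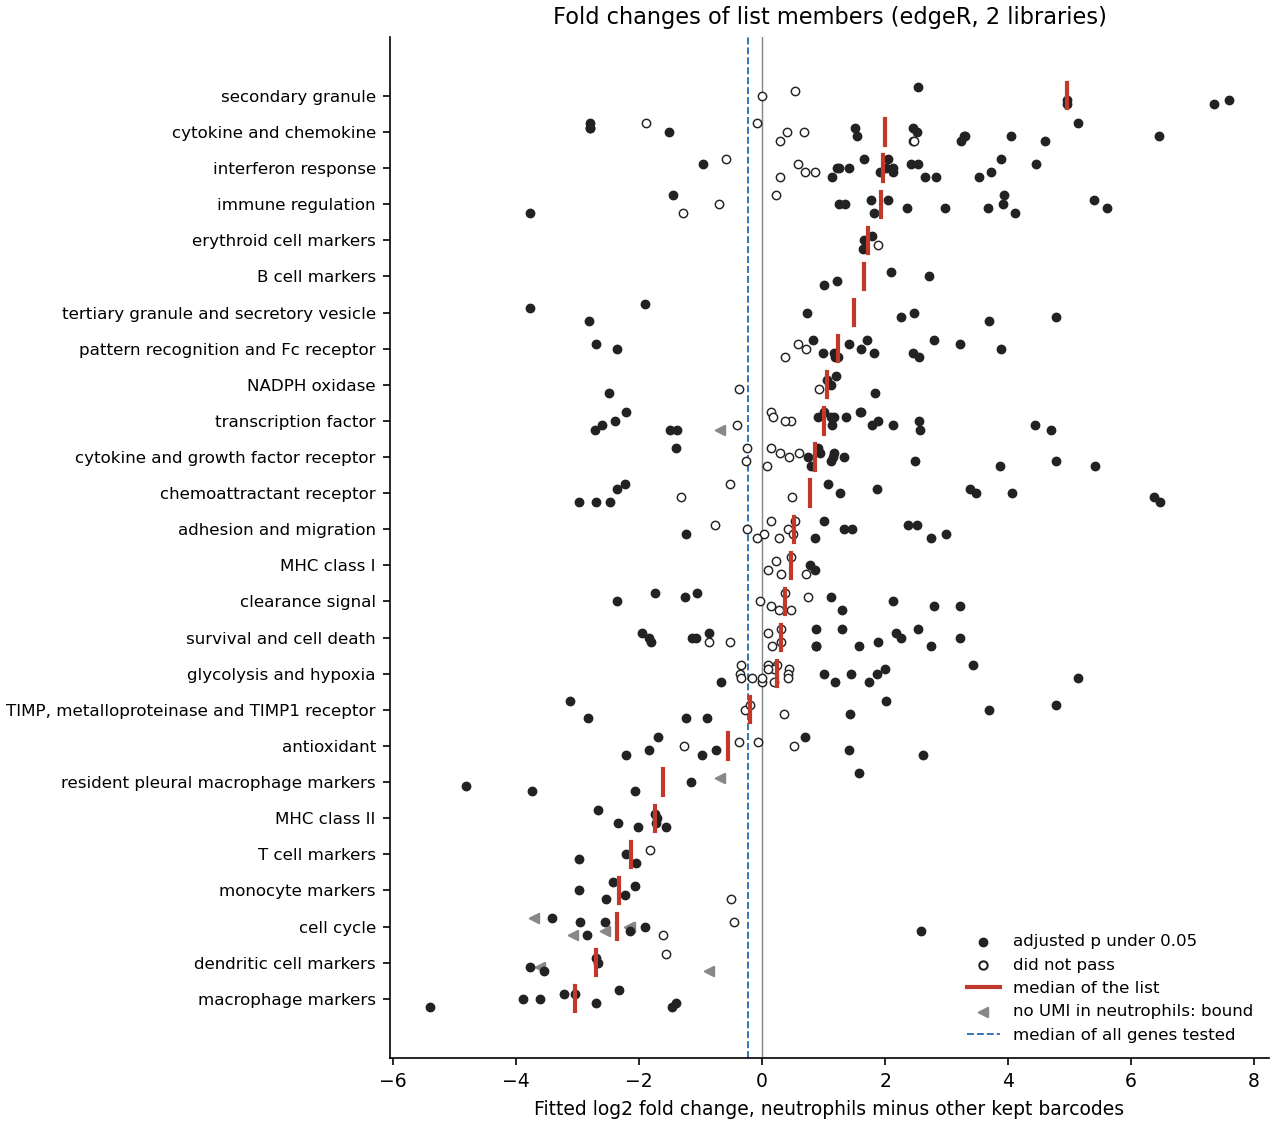
Fitted log2 fold changes of neutrophils over all other kept barcodes for the tested genes of each list with at least 4 of them (rows); filled points passed the test, open points did not, grey arrowheads are genes with no UMI in neutrophils, drawn at the bound that 3 counts give, red bars are list medians and the dashed blue line is the median of all 10173 genes tested, -0.23. Secondary granule and interferon response genes lie mostly to the right, and macrophage, monocyte and MHC class II genes to the left.

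Interferon response genes, the antiviral set that cells switch on after interferon, were higher in 18 of 24 members tested and lower in 1. Slfn4, a schlafen of myeloid cells, stood at 97.9 and 304 CPM against 8.91 and 30.1 (3.89 ± 0.34), Rsad2 (viperin) at 21.3 and 274 against 1.69 and 33.5 (3.72 ± 0.39), Isg15, a ubiquitin-like modifier, at 149 and 1547 against 55.6 and 490 (2.04 ± 0.31) and Gbp2, a GTPase that attacks pathogen vacuoles, at 76.6 and 2311 against 29.1 and 864 (1.92 ± 0.32). For these genes neutrophils lay above the other barcodes within each library, on few UMIs in library 1. There Rsad2 had 5 UMIs in 3 cells, Gbp2 18 in 13 cells and Isg15 35, 9 of them in 1 cell. At 500 UMIs per cell, library 1 differed little in the interferon genes counted below. They were found in 22.6% of its neutrophils (interval 14.2% to 33%) and 19.3% of its other barcodes. For the last 3 of these genes the other barcodes of library 2 lay above the neutrophils of library 1. Bst2, tetherin, was the lower member (29.8 and 122 CPM against 115 and 305). With library 2 limited to the BC3 side 18 of 24 members were higher and 0 lower. With it limited to the lowest depth of library 1, 18 of 25 were higher and 3 lower. Ifi44 had 0 UMIs in neutrophils, and Mx1 0 and 2.

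Promoters of these genes are shown because most of the list also differed between the libraries, as described after them. Sequences are from RefSeq (GRCm38.p6): the 250 bases before the start, 5' to 3' on the gene's strand, for the 4 list members with the highest library 2 level among those that hold the pattern and whose window lies outside annotated genes. Capitals mark matches to TTTC, any 2 bases and TTTC again, on either strand (GAAA, any 2 bases and GAAA when read on the strand shown), letters like those of the interferon-stimulated response element.

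Isg15, chr4:156200819-156201068, minus strand: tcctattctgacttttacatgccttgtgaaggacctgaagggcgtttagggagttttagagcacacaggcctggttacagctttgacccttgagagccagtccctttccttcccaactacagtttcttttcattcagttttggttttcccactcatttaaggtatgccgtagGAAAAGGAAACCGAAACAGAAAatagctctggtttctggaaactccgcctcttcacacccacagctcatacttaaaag
Trim30a, chr7:104465194-104465443, minus strand: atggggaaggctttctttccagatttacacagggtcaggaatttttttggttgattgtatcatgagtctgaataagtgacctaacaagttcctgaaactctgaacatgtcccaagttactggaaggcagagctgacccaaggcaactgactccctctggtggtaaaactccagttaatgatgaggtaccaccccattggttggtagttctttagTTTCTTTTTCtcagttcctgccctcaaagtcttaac
Rsad2, chr12:26456453-26456702, minus strand: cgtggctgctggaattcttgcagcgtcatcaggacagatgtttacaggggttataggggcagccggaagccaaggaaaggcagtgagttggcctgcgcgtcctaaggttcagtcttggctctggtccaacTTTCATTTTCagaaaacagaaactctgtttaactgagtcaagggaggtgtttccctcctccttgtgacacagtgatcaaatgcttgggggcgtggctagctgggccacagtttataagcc
Ifit3, chr19:34583279-34583528, plus strand: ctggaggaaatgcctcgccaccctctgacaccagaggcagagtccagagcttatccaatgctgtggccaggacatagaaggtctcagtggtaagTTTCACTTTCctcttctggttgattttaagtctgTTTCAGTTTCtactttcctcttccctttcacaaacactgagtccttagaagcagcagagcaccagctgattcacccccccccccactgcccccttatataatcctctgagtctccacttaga

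Trim30a stood at 166 and 580 CPM in neutrophils and Ifit3 at 12.8 and 124. Isg15 holds 3 overlapping matches, Ifit3 2, and Trim30a and Rsad2 1 each. The pattern was found in the windows of 10 of the 20 list genes that matched the RefSeq table (50%), against 936 of 27025 genes (3.46%), and in 0 of the 9 matched genes among the 12 leading genes described above. A match is a description of letters and no evidence that a factor binds there.

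Neutrophils of library 2 carried more interferon response RNA than those of library 1. With 1 library a side there is no test; of 2479 genes with at least 50 CPM on one side, 108 (4.36%) were at least 4-fold higher in library 2 and 34 (1.37%) at least 4-fold lower. The interferon list gave 20 of its 23 compared members to the 108, with a median ratio of 6.92. Gbp2 stood at 76.6 CPM (18 UMIs) in library 1 and 2311 (5359 UMIs) in library 2, a ratio of 30.2 (95% counting interval 19.1 to 50.9), Ifi47 at 38.3 and 791 and Isg15 at 149 and 1547. Socs1, a brake on interferon signalling, stood at 12.8 and 258 CPM, a ratio of 20.2 (6.89 to 98.4). The largest ratios were those of Cd274 (47, interval 8.39 to 1861) and the GTPase Gbp3 (41, 7.32 to 1624), which each had 1 UMI in library 1, followed after Gbp2 by Gbp5, the histone gene Hist2h2aa1, Dtx3l, Ube2l6 and the interferon signal transducer Stat2. At equal depth, 500 UMIs, Gbp2 was found in 3.57% of library 1 neutrophils (3 of 84) and 55.7% of those of library 2, and in 1.26% and 35.8% of the other barcodes.

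The other kept barcodes and deeper neutrophils differed in the same direction. In the other kept barcodes the interferon list had a median ratio of 5.97, and 55 of the 108 genes were at least 4-fold higher there too. With library 2 limited to neutrophils of at least 1999 UMIs the list's ratio was 5.69 and 81 of the 108 were still at least 4-fold apart; without members that carried other cells' markers it was 6.07. The antigen peptide transporters Tap1 (55.3 and 376 CPM) and Tap2 (29.8 and 275) were also among the 108, as was Fos (302 and 2265). Of the 108, 40 had 1 to 3 UMIs and 6 none in library 1, and for 32 the counting interval lay wholly past 4-fold.

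Genes lower in library 2 were of several kinds. Ngp, of secondary granules, stood at 179 and 17.3 CPM (10.4-fold lower; 5.998-fold lower with library 2 limited to neutrophils of at least 1999 UMIs), with 42 UMIs in 12 cells of library 1, and Nos2 at 59.6 and 11.2. Of the 6 secondary granule genes compared 1 was called. The median ratio of these 6 was 0.741, and 0.992 with library 2 limited to neutrophils of at least 1999 UMIs. For the granule list counted per cell below, which had 4 genes compared, the median ratios were 0.443 and 0.532. Klrd1, an NK and dendritic cell gene, had 24 UMIs in library 1, of which 1 cell held 16, and 1 in library 2. The pseudogenes and unnamed transcripts Gm26740, Gm3839, Rpl13-ps3 and Rps18-ps3 were lower in the other barcodes of library 2 too (Gm26740 221 and 1.73 CPM in neutrophils, 58.8 and 0.446 in the rest), as was the globin Hba-a1, with the platelet gene Ppbp. Of the MHC class II genes, 4 of 6 compared were at least 4-fold lower in library 2 with a median ratio of 0.202; without members that carried other cells' markers the median was 1.38. Among the called genes were also Xist (0 and 176 CPM), which is made from the inactive X chromosome of female cells, and Y-linked Eif2s3y (59.6 and 9.06). Y-linked RNA without Xist was found in 25 neutrophils of library 1 and 32 of library 2, Xist without it in 0 and 254, and both in 0 and 4. The part of these in the differences between the libraries was not tested.

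**Figure D4:**
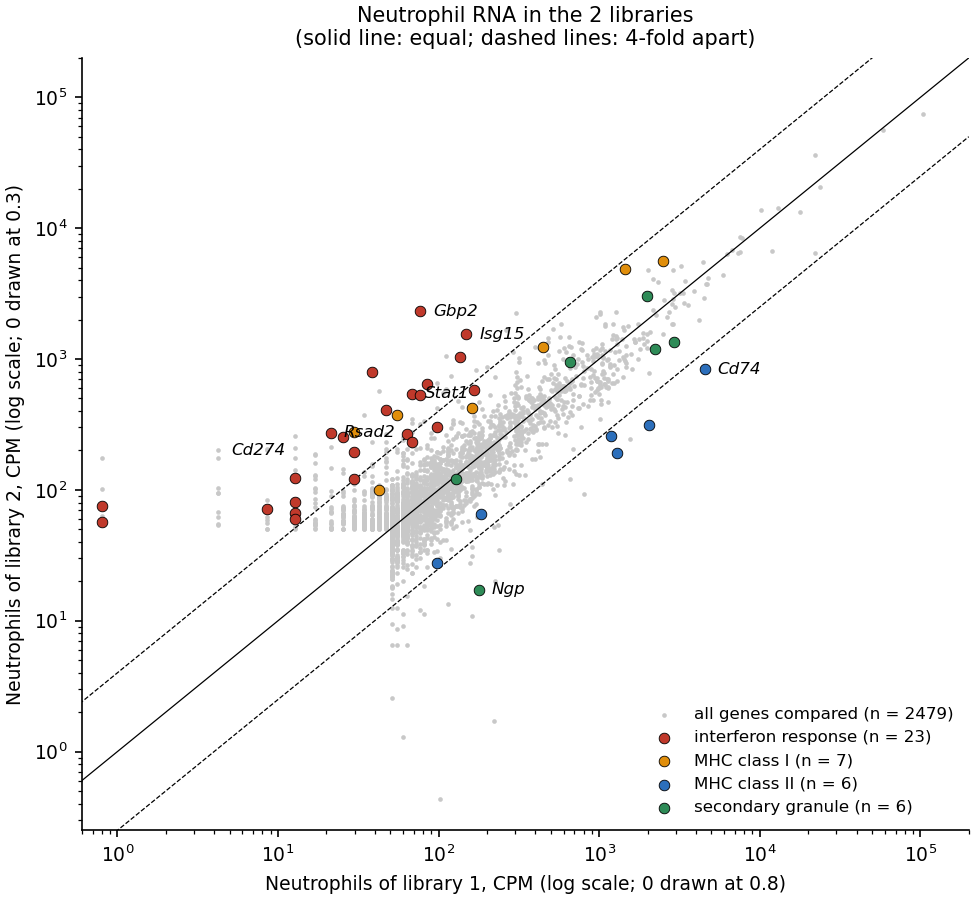
Level of each gene in neutrophils of library 1 (x axis, CPM, log scale) and library 2 (y axis) for the 2479 genes compared, with 0 drawn at the left or lower edge; dashed lines are 4-fold apart. The 23 interferon response genes (red) lie mostly above the upper dashed line, 4 of the 6 MHC class II genes (blue) and Ngp below the lower one.

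Among neutrophils of a library, cells differed in 3 lists: granule genes, interferon genes and cytokine genes, each counted after thinning every cell to 500 UMIs. The lists were thus counted at the same depth, but the cells were not matched for their full depth. Their lowest full depth was 1999 UMIs in library 1 and 507 in library 2. Granule UMIs (Lcn2, Mmp8, Ly6g, Ngp and others) were found in 61.9% of neutrophils of library 1 (interval 50.7% to 72.3%) and 42.8% of library 2 (40.2% to 45.3%), against 6.98% and 9.06% of the other barcodes. Interferon UMIs were found in 22.6% (14.2% to 33%) and 83% (80.9% to 84.9%), against 19.3% and 64.5%. Cytokine UMIs (Cxcl2, Ccl3, Nfkbia and others) were found in 83.3% (73.6% to 90.6%) and 88.7% (86.9% to 90.3%), against 52% and 61.2%. At least 5 interferon UMIs were carried by 0 of 84 and 315 of 1457 neutrophils, and at least 5 granule UMIs by 14 and 43. The granule counts include Ly6g, which codes for a surface antigen.

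**Figure D5:**
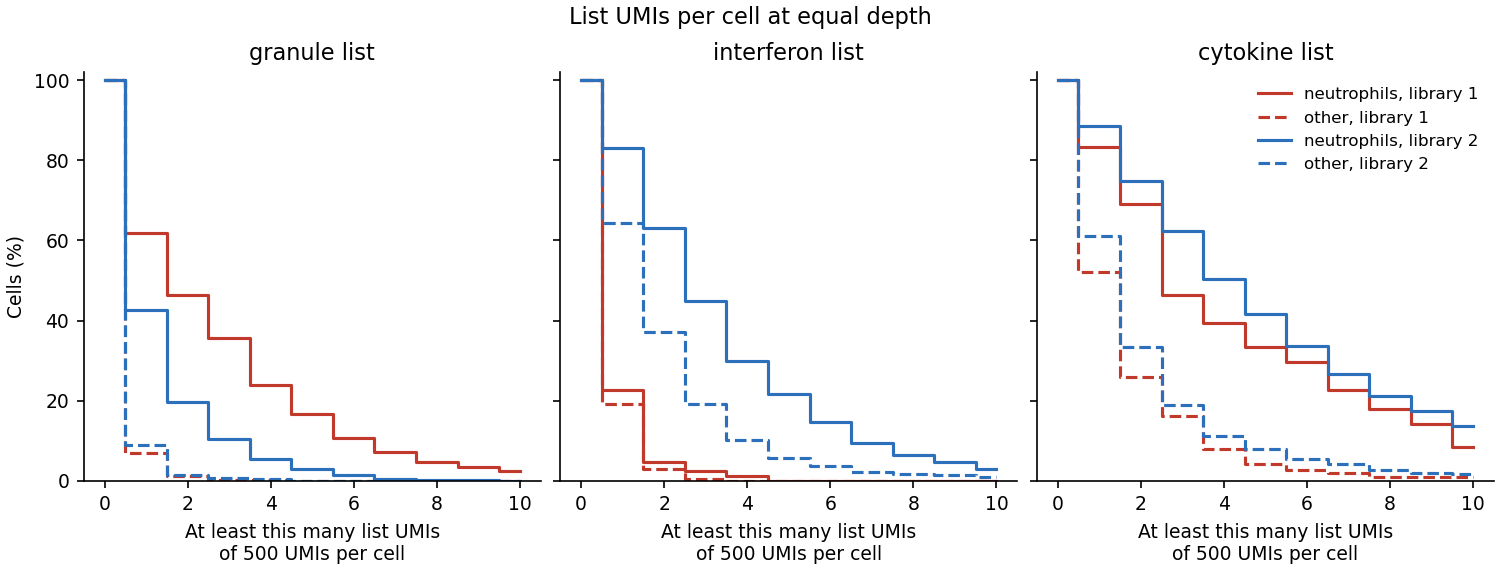
Share of cells (y axis, %) with at least a given number of list UMIs (x axis) among 500 UMIs per cell, for the granule, interferon and cytokine lists; solid lines are neutrophils, dashed lines the other kept barcodes, red library 1 and blue library 2. Neutrophils lie above the rest for the granule and cytokine lists in both libraries, library 1 being higher for granule genes; for interferon genes both kinds of cell of library 2 lie above both of library 1.

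Overlap between the lists was counted per library and was not tested. In library 2, 58 of the 286 cells high in granule genes were high in interferon genes (20.3%, interval 15.8% to 25.4%), against 191 of the 834 low in them (22.9%, 20.1% to 25.9%). Of the 315 high in interferon genes, 58 were high in cytokine genes (18.4%, 14.3% to 23.1%), against 176 of 804 (21.9%, 19.1% to 24.9%). In library 1, 7 of the 19 cells high in interferon genes were high in cytokine genes (36.8%, 16.3% to 61.6%), against 12 of 65 (18.5%, 9.92% to 30%). Cells here are high when over the library's 75th percentile and low when at or below its median. For interferon genes both limits were 0 UMIs in library 1, so its low cells had 0 UMIs and 15 of its 19 high cells had 1. In library 2 the median was 2 UMIs and the 75th percentile 4. A cell called high in library 1 could thus be low by the limits of library 2. Counts per cell are small: 121 cells of library 2 lay at the interferon limit itself and 100 just over it. High and low cells also differed in full depth. In library 2 the medians were 1493 and 1276 UMIs for granule genes, 1258 and 1401 for interferon genes and 1334 and 1303 for cytokine genes. In library 1 they were 2217.5 and 2222, 2114 and 2222, and 2113 and 2301 in the same order.

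Cells high in granule genes, tested against cells low in them on other genes, differed in 9 of 3079 genes (0.292%), 3 higher (0.0974%) and 6 lower (0.195%). Wfdc21, a secreted antiprotease-like protein, stood at 10124 and 3891 CPM in high and 3413 and 1702 in low cells of libraries 1 and 2 (1.31 ± 0.26, edgeR adjusted p = 0.003), with the stefins Stfa1 and BC100530. The lower genes included Cd74 (59.6 and 360 CPM against 8748 and 897), H2-Ab1, H2-Eb1 and Ly6d, all genes of other cell types. Without members that carried other cells' markers 0 genes passed in either direction (50 higher and 32 lower at an unadjusted p under 5%), and with DESeq2 0 passed.

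Cells high in interferon genes differed from cells low in them in 50 of 3143 genes (1.59%), 12 higher (0.382%) and 38 lower (1.21%). Higher genes outside the counted list were, among others, Ifi47 (106 and 1605 CPM in high against 32.6 and 632 in low cells; 1.40 ± 0.29), Irgm1 (185 and 1300 against 104 and 549), Xaf1, Slfn5, Isg20, Gm13822 and Basp1. Ccl4 was also called but its UMIs in library 1 lay mostly in 1 cell, and it turned to -0.23 without members that carried other cells' markers. The lower genes included Ms4a6c (0 and 58.4 CPM against 326 and 232), Pld4, Ly86 and Anxa5, genes of mononuclear cells. Without those members 21 genes were higher, among them Ifi27l2a (1.41 ± 0.24, edgeR adjusted p = 8.49e-06), Xaf1, Slfn5, Gbp2 (1.02 ± 0.25), Gbp3, Gbp5, Zbp1 and Bst2. Another 5 were lower: Prok2, a chemoattractant of neutrophils (-2.0 ± 0.49), Mmp8 (-0.98 ± 0.28), Gm5483, BC100530 and Cd14. These genes were named after their values were seen. Library 1 gave 19 high cells to this split, of which 15 had only 1 interferon UMI of 500. With DESeq2 0 genes were higher and 6 lower.

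Cells high in cytokine genes differed in 3 of 3010 genes (0.0997%), 0 higher and 3 lower, with 85 higher and 192 lower at an unadjusted p under 5% and 1 higher and 3 lower by DESeq2. Lyz2 (1126 and 953 CPM in high against 2878 and 2896 in low cells; -1.53 ± 0.17), Tmsb10 and the ribosomal gene Rps18 were the lower ones. Without members that carried other cells' markers these 3 did not pass and 5 genes were higher: Il1b (1.01 ± 0.22, edgeR adjusted p = 0.00462), which was kept out of the list, Thbs1 (1.90 ± 0.41), an adhesive matrix glycoprotein, Hilpda (1.56 ± 0.36), G0s2 (1.11 ± 0.28) and Cd14 (1.12 ± 0.24). With all members Il1b did not pass (0.96 ± 0.18, edgeR adjusted p = 0.0795). The counts of these 3 splits moved with the seed, the depth of thinning and the members left out, so each is a description of these draws.

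The genes most uneven between neutrophils at 500 UMIs, ranked by the lower of the 2 libraries' ratios of variance to mean, were Wfdc17 (10.9 and 7.04), an antiprotease-like secreted protein, Gm5483 (6.87 and 6.52), the ferritin chain Fth1 (7.47 and 5.11), Cxcl2 of the cytokine list (20 and 5.08), Actb, Stfa1 and Ifitm1, against medians of 1.12 and 1.1 over the 517 genes with a mean of at least 0.1 UMIs. Wfdc17 had a mean of 10.2 and 6.54 UMIs per 500 and Fth1 of 13.9 and 10.7. For genes that vary between cells this ratio rises with the mean, so the ranking favours abundant genes. In library 1 the ratios of Ccl4 (24.5, and 3.57 in library 2), Cd74 (22.4 and 3.5) and Ccl3 (9.3 and 3.44) were also high. These ratios were not tested, and the Cxcl2 value of library 1 includes the single cell with 35.5% of its UMIs.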

How the data were processed

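Live CD45+ CD11b+ cells of malignant pleural effusions were measured by droplet RNA sequencing in 2 libraries of 1 group. The authors deposited UMI counts per gene and barcode, made with Cell Ranger 3.0.1 and the mm10 build per the submitters' processing notes; no source used here gives the annotation release or the use of strand, so overlapping genes and near-identical copies are uncertain. Deposited barcodes start at 1999 UMIs (library 1) and 500 (library 2), and the summed neutrophil counts were 234897 and 2318750. The members, lists and tests were chosen with earlier results of these data known.

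Counts were summed per library over neutrophils and over other kept barcodes, and compared with edgeR 4.0.16 in R 4.3.3 (quasi-likelihood test, TMM scaling, filterByExpr, library as a block, Benjamini-Hochberg adjustment over all genes tested, 5% limit), with the 6 rule genes left out. Cells of the same library share its preparation, so the library pairs the sums by design. In library 2 most neutrophils and few other barcodes lay on the BC3 side of its antibody tags, so the contrast there largely follows the tag side; with that side only, 1462 genes were higher and 1542 lower, and 11 named genes no longer passed. Intervals are exact (Clopper-Pearson for shares) at 95% and cover counting error only. With 1 library a side no test was made, and a gene was called at 4-fold or more and at least 50 CPM on the higher side; where a side had no count, the floor was 3 counts over all its cells. States were split after thinning each cell to 500 UMIs (seed 1), with cells over the 75th percentile as high and those at or below the median as low, and full-depth UMIs of other genes were summed. Fold changes are log2 with the standard error from the fit. Named genes were the 12 highest and 10 lowest by fold with at least 100 CPM on the higher side and 1 direction in both libraries, up to 4 per list, and those whose role is described; in the states the 8 highest and 4 lowest, and between libraries the 8 largest each way. Doublets were not removed: scrublet marked 5 and 3 kept barcodes, which is too few to have worked, so it served as an alternative only. The tests were tried on simulated data. Some genes of the lists are not reported here. Alternatives were DESeq2 1.42.0, other scalings, filters, gates, depths and seeds.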

Additional observations from a re-analysis of the deposited data

Results flagged for a closer look

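Library 2 carried counts for 2 antibody tags, BC2 and BC3, that the labels do not explain and that were used only in an alternative limited to the BC3 side. Neutrophils had a median of 2086 BC3 and 927 BC2 tag counts, and 1426 of 1457 had more BC3 than BC2. The other kept barcodes had medians of 733 and 5286, and 275 of 1390 had more BC3. The 31 neutrophils with more BC2 carried Cxcr2 at 577 CPM, Cd74 at 4031 and Lyz2 at 14308, against 1945, 636 and 1048 in the 1426 others. Library 1 has no tag counts to set beside these.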

How the results depend on the processing

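Of the 164 genes named in the comparison with other barcodes, 152 passed and 113 of these passed under each fitted alternative. With DESeq2 1239 genes were higher and 1008 lower in neutrophils, and with no replicate block 1370 were higher and 1416 lower, against 2026 and 2247. The replicate block is the library, shared by design; without it 30 of the named genes no longer passed, among them Cd274, Timp2, Cd63, Cd74, Isg15 and Gbp2. From a single library, 1969 to 2025 of the higher and 2149 to 2247 of the lower genes kept their direction. Those genes had been called from both libraries together, so this agreement was largely set in advance. Direction turned for Cd274 (-0.26) and Ifi47 (-0.089) without replicate 2 (2.08 and 1.32 without replicate 1), for Ccr7 (0.53 at a 1% limit), for Ms4a1 (-1.17 without members with other cells' markers) and for Cd79a (-1.03 with the BC3 side of library 2, -1.59 without the deepest members, -9.92 without members with other cells' markers, and -0.70 without replicate 2, 1.39 without replicate 1). Among genes that did not pass, the sign also turned for Ifnar1 (-0.13 with library size, -0.0075 with no C1q UMI), Ifnar2 (-0.18 with library size, -0.027 with no filter), Pkm (-0.013 with library size), Gapdh (0.13), Eno1 (0.0063) and Ldha (0.027) with the BC3 side, Gapdh (0.057) and Xkr8 (0.16) without members with other cells' markers, and Xkr8 (0.00797 at 1%, 0.34 with no C1q UMI).

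The state splits were unstable. For granule genes, 3 higher and 6 lower became 0 and 0 with DESeq2, another seed, no replicate block or without members with other cells' markers, 5 and 22 at 1000 UMIs, and 5 and 26 without barcodes marked by scrublet; lower genes became 12 with DESeq2 size factors or no filter and 0 with thinned UMIs summed. For interferon genes, 12 higher became 0 (DESeq2, no replicate block, thinned UMIs summed, scrublet), 40 (DESeq2 size factors), 30 (library size), 19 (no filter), 5 (1000 UMIs) and 21 (without other cells' markers), and 38 lower became 6 (DESeq2), 58 (library size), 1 (1000 UMIs), 5 (without other cells' markers) and 0 (no replicate block, thinned UMIs summed, scrublet). For cytokine genes, 0 higher became 1 (DESeq2), 8 (DESeq2 size factors), 17 (another seed or no filter), 5 (library size or without other cells' markers), 2 (thinned UMIs summed), 31 (1000 UMIs) and 7 (scrublet), and 3 lower became 35 (DESeq2 size factors), 63 (another seed), 33 (library size), 62 (no filter), 82 (1000 UMIs), 30 (scrublet) and 0 (no replicate block, thinned UMIs summed, without other cells' markers). Ccl4 in the interferon split turned to -0.82 (another seed), -1.01 (1000 UMIs) and -0.23 (without other cells' markers). The causes were not tested.

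The share of neutrophils was 5.47% in library 1 with no C1q UMI allowed, and in library 2 54.3% at a 1% limit, 45.6% at 4%, 42.1% with no C1q UMI, 46% with 500 genes and 5% mitochondrial UMIs and 17.3% from 1999 UMIs. With library 2 limited to the BC3 side it was 83.8% (1426 of 1701, interval 82% to 85.6%). The share in library 2 thus differed strongly by tag side. Depth limits library 1 most, where a gene at 4.26 CPM rests on 1 UMI.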
